A study of Bos taurus with 8 samples.

Results

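The enzymes that build fatty acids and triglycerides were followed in the semitendinosus, a muscle of the hindquarter, of 12 bulls aged 15 months. A list of 10 genes makes up the set, named for their step in the pathway and chosen with earlier results of these data known. Of the 10, 8 could be measured: ACLY, ME1, THRSP, ELOVL6, SCD, GPAM, AGPAT2 and DGAT2. A probe was assigned to a gene by its RefSeq accession, and the brightest probe that stood above background in at least 4 of 16 channel readings spoke for the gene. No probe matched ACACA (acetyl-CoA carboxylase, which makes malonyl-CoA) or LPIN1 (lipin, a phosphatidate phosphatase), so neither is described further. The 8 genes stand among 6693 named genes and 17061 probes that passed the same filter.

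The bulls were 4 Herefords, 4 Holstein-Friesians and 4 Limousins, with no treatment named in the labels, and the series sets the Hereford and Holstein-Friesian bulls, as well-marbled beef, against the Limousins, as lean beef. Each of 8 dual-colour arrays carried total RNA of 1 Hereford or 1 Holstein-Friesian bull together with RNA of 1 Limousin bull, and the same 4 Limousin bulls were used for both breeds. Hereford RNA was labelled with Cy5 (red) and its Limousin partner with Cy3 (green) on one slide. Holstein-Friesian RNA was labelled with Cy3 and its Limousin partner with Cy5 on the other slide. Breed, dye and slide therefore cannot be told apart within a breed, and 4 bulls of a breed are the whole sample of it.

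Fat in muscle is laid down in fat cells between the fibres and, as droplets, in the fibres themselves. Cells make fatty acids from acetyl-CoA with reducing power from NADPH, lengthen and desaturate them, and then attach them in turn to a glycerol backbone to give triglyceride. In cattle, acetate rather than glucose supplies most of the carbon for fatty acids, and adipose tissue is the main site of their synthesis. In whole muscle, fewer fat cells and less RNA per fat cell cannot be told apart.

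Every ratio below is a log2 ratio of breed over Limousin on 1 array, after background correction and normalization within the array, so that a positive value means more RNA in the Hereford or Holstein-Friesian bull. A value was called when its limma p, adjusted by Benjamini-Hochberg over all 17061 probes, was under 0.05. Median net intensity per array, which limits the precision for dim genes, was 97 to 139 for Hereford, 30.5 to 46.5 for Holstein-Friesian, 96.5 to 118 for Limousin in Cy5 and 63 to 88 for Limousin in Cy3. Probes above background numbered 16214 to 16981 for Hereford, 13944 to 14826 for Holstein-Friesian, 16639 to 17096 for Limousin in Cy5 and 14932 to 16446 for Limousin in Cy3. All 8 measured skeletal muscle markers stood above background in all 16 readings, and TNNT3, MYLPF and TTN of the 11 listed had no kept probe. Correlations between arrays over all kept probes ran between 0.06 and 0.53 for Hereford pairs and between 0.40 and 0.60 for Holstein-Friesian pairs.

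Of the 8 genes, 1 was called in any comparison. ME1, the cytosolic malic enzyme, was lower in Holstein-Friesian than in Limousin muscle, and its ratio to Limousin was higher in Hereford than in Holstein-Friesian. The other 7 genes, among them SCD with its wide spread and GPAM with its raised ratios in both breeds, did not pass in any comparison with loess normalization. In Hereford over Limousin 0 of 8 were called by limma, against 7.13% of all probes. At an unadjusted limma p under 0.05 stood 4 of the 8, against 4122 of the 17061 probes. In Holstein-Friesian over Limousin 1 of 8 was called, against 6.45% of all probes. With each Limousin bull's Hereford and Holstein-Friesian ratios averaged, the comparison called marbled below, 0 of 8 were called, against 0.598%. Also 0 were called when the Limousin bull was fitted as a replicate block. In the marbled mean 4 of the 8 stood at an unadjusted limma p under 0.05, against 3336 of the 17061 probes. In the difference of Hereford minus Holstein-Friesian, 1 of 8 was called, against 2.68%. The median log2 ratio of the 8 genes was 0.20 in Hereford, -0.08 in Holstein-Friesian and -0.10 in the marbled mean, and their median difference was 0.11. Over all kept probes these medians were 0.01, -0.01, -0.0007 and 0.02.

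**Figure D1:**
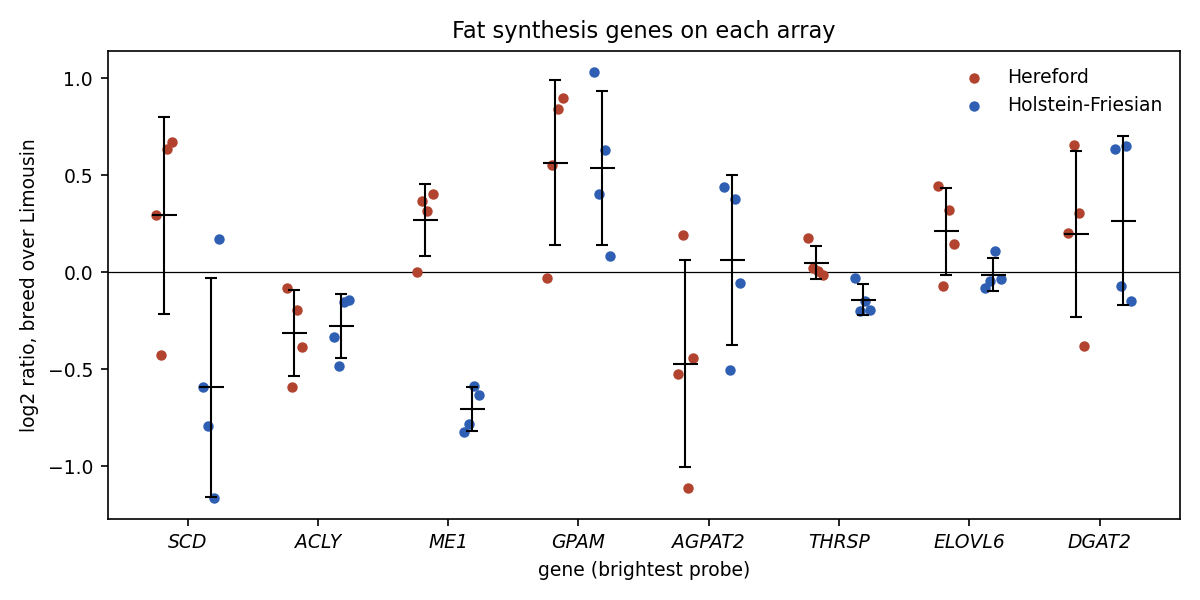
Log2 ratio of breed over Limousin for the brightest probe of each of the 8 measured genes (vertical axis), 1 point per array, Hereford in red and Holstein-Friesian in blue, with the mean and SD of 4 arrays in black. ME1 lies between -0.82 and -0.59 in Holstein-Friesian, clear of the Hereford arrays, whereas SCD and AGPAT2 spread over more than 1 log2 unit within a breed.

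ACLY, ATP citrate lyase, splits cytosolic citrate into acetyl-CoA and oxaloacetate and so supplies carbon for fatty acids. On the Hereford arrays its log2 ratio was -0.08, -0.59, -0.19 and -0.38, and on the Holstein-Friesian arrays it was -0.33, -0.48, -0.15 and -0.14. All 8 ratios were below 0, and the Holstein-Friesian ratios lay within the Hereford range. ACLY was the only one of the 8 genes with the same direction on every array, against 7.28% of all probes, and the breeds share their Limousin bulls, so the 8 ratios are not independent. Its mean was -0.31 ± 0.22 in Hereford (adjusted p = 0.0913) and -0.28 ± 0.16 in Holstein-Friesian (adjusted p = 0.130, SD, n = 4 each, limma). The marbled mean was -0.29 ± 0.17 (SD, n = 4, limma adjusted p = 0.142), so that ACLY did not pass despite its direction. Between the breeds the difference was -0.03, with a 95% interval between -0.35 and 0.28. With median centring ACLY passed in Holstein-Friesian at -0.70 (limma adjusted p = 0.0106), and the difference turned to 0.61 and passed (limma adjusted p = 0.0463), against a median of all probes of 0.36. Median centring called 6680 of all 17061 probes in Holstein-Friesian and 6219 in the difference.

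ME1 reduces NADP to NADPH as it turns malate into pyruvate, and that NADPH drives fatty acid synthesis. Its ratio was 0.0004, 0.37, 0.31 and 0.41 on the Hereford arrays and -0.82, -0.78, -0.59 and -0.63 on the Holstein-Friesian arrays. No Holstein-Friesian ratio came near a Hereford ratio. Such a separation held for ME1 and THRSP among the 8 genes and for 14.0% of all probes. ME1 fell by 0.71 ± 0.11 in Holstein-Friesian muscle relative to Limousin (SD, n = 4), which is 1.63-fold lower, with a limma adjusted p of 0.0058. In Hereford muscle the ratio was 0.27 ± 0.18 (SD, n = 4, limma adjusted p = 0.0815), which did not pass. Hereford exceeded Holstein-Friesian by 0.98 on the log2 scale, or 1.97-fold, with a 95% interval between 0.72 and 1.24 and a limma adjusted p of 0.0139. Leaving out the arrays of Limousin bull 2, 3 or 4 left the difference at 0.92, 1.00 and 0.96, no longer called (limma adjusted p = 0.113, 0.0709 and 0.147), and the Holstein-Friesian call was lost without bull 2 (limma adjusted p = 0.0601). Those fits of the difference called 0, 24 and 0 of all 17061 probes, and that Holstein-Friesian fit called 78, so few or no probes of any gene passed there.

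A dimmer ME1 probe gave the same order with smaller values. It read -0.21, 0.13, 0.03 and 0.23 on the Hereford arrays and -0.64, -0.48, -0.26 and -0.43 on the Holstein-Friesian arrays, again without overlap. Its Holstein-Friesian ratio was called at -0.45 (limma adjusted p = 0.0265), while its difference of 0.50 was not (limma adjusted p = 0.0743). Deviations of the pair of probes from their breed means correlated at 0.94 over 8 arrays, a description of probes that share each array's RNA and normalization.

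As a level rather than a ratio, ME1 stood at 9.41, 9.48, 9.56 and 9.42 normalized log2 intensity in the Hereford bulls and at 8.35, 8.59, 9.06 and 8.89 in the Holstein-Friesian bulls. In the same 4 Limousin bulls it read 9.17, 9.37, 9.65 and 9.53 in Cy5 and 9.41, 9.11, 9.25 and 9.02 in Cy3. Hereford was thus within the Limousin range of Cy5 readings, and 3 of the 4 Holstein-Friesian bulls lay below every Limousin reading. The Cy5 reading of a Limousin bull exceeded its own Cy3 reading by -0.24, 0.26, 0.40 and 0.51, a mean of 0.23 ± 0.33 (SD, n = 4, limma adjusted p = 0.322). Both readings are of the same bull, so the value holds dye and slide. Each reading was normalized together with the other breed's bull on its array, and the part of that was not tested. Set against Limousin in the same dye on the other slide, ME1 was 0.04 ± 0.17 in Hereford and -0.48 ± 0.43 in Holstein-Friesian (SD, n = 4 each), and the Holstein-Friesian value did not pass (limma adjusted p = 0.228). Such a same-dye ratio is the array's ratio with the Limousin Cy5 minus Cy3 value subtracted in Hereford and added in Holstein-Friesian. It follows from those values and is not a separate measurement. The part of dye in the ME1 difference was not tested beyond these values.

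**Figure D2:**
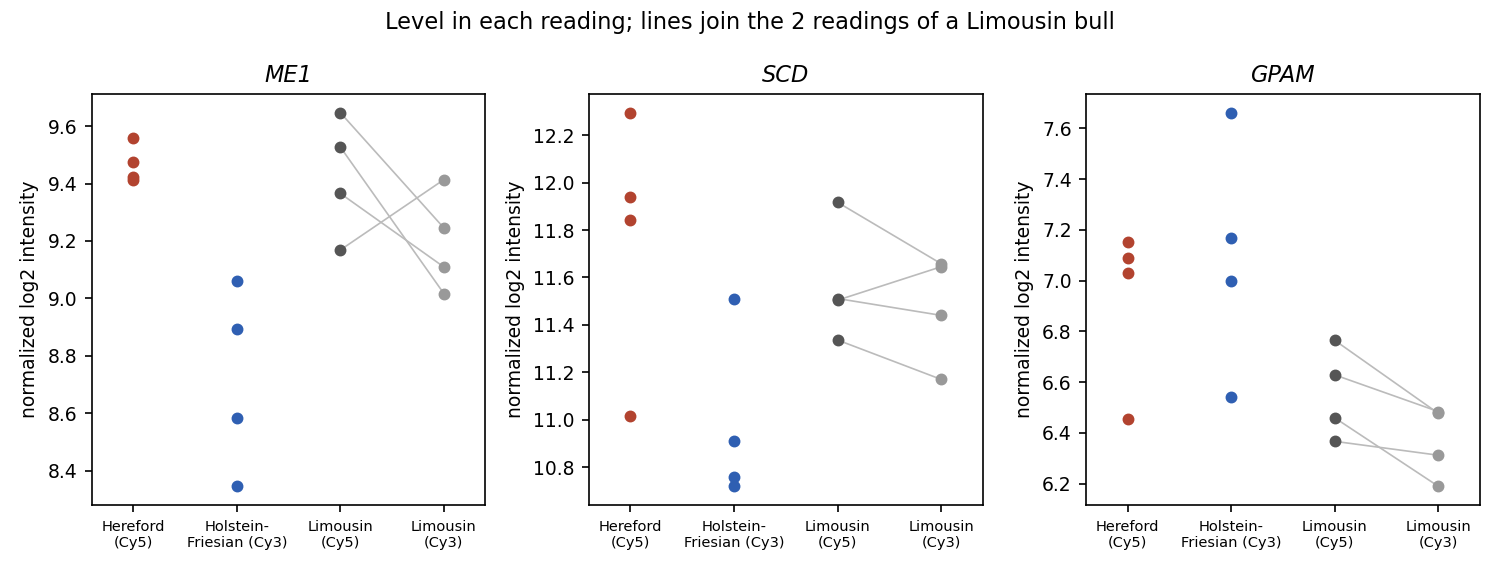
Normalized log2 intensity (vertical axes, which do not start at 0) of ME1, SCD and GPAM in each reading, with Hereford in Cy5, Holstein-Friesian in Cy3 and the Limousin bulls in both dyes, lines joining the readings of 1 Limousin bull. The ME1 level of Holstein-Friesian bulls ran between 8.35 and 9.06, the lowest of the 4 sets of readings, and 3 of the 4 Hereford and 3 of the 4 Holstein-Friesian readings of GPAM lay above every Limousin reading.

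THRSP, thyroid hormone responsive protein or Spot 14, is a nuclear and cytosolic protein linked to lipogenesis in fat, liver and mammary gland. Its ratios were small, at 0.18, 0.02, 0.01 and -0.01 on the Hereford arrays and -0.03, -0.20, -0.15 and -0.19 on the Holstein-Friesian arrays. The sets did not overlap, but the lowest Hereford array (-0.01) and the highest Holstein-Friesian array (-0.03) nearly met. THRSP averaged 0.05 ± 0.09 in Hereford and -0.14 ± 0.08 in Holstein-Friesian (SD, n = 4 each), and the difference of 0.19 was not called (95% interval between 0.0048 and 0.38, limma adjusted p = 0.228). In the Limousin bulls the Cy5 reading exceeded the Cy3 reading by 0.14 ± 0.02 (SD, n = 4), and in the same dye the ratios were -0.09 in Hereford and -0.0013 in Holstein-Friesian. The gene was dim, above background in 15 of 16 readings, with a net intensity of 41.3 to 60.5 in Hereford, 9.75 to 24.8 in Holstein-Friesian, 49.5 to 61.5 in Limousin Cy5 and 29.3 to 42.3 in Limousin Cy3.

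ELOVL6 lengthens palmitate to stearate. Its ratio was 0.45, -0.07, 0.32 and 0.15 on the Hereford arrays and -0.08, -0.04, 0.11 and -0.04 on the Holstein-Friesian arrays. The breeds overlapped, and the Holstein-Friesian values lay close to 0. Means were 0.21 in Hereford (limma adjusted p = 0.178) and -0.01 in Holstein-Friesian, and the difference was 0.22 (95% interval between -0.06 and 0.50, limma adjusted p = 0.337). The gene was above background in 4 of 4 Hereford, 2 of 4 Holstein-Friesian and 7 of 8 Limousin readings, so low signal limits what its ratios can show.

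SCD, stearoyl-CoA desaturase, places a double bond in stearate and palmitate and makes oleate, the most abundant fatty acid of beef fat. On the Hereford arrays its ratio was 0.30, -0.43, 0.64 and 0.67, and on the Holstein-Friesian arrays it was -0.59, -0.79, -1.16 and 0.17. In all, 3 of 4 Hereford ratios were above 0 and 3 of 4 Holstein-Friesian ratios below it, with 1 array of each breed going the other way. The mean was 0.29 ± 0.51 in Hereford (limma adjusted p = 0.513) and -0.59 ± 0.56 in Holstein-Friesian (limma adjusted p = 0.177, SD, n = 4 each). The difference of 0.89 was close in size to that of ME1, but its 95% interval ran between 0.12 and 1.65 and it was not called (limma adjusted p = 0.183). The marbled mean was -0.15 ± 0.43 (SD, n = 4, limma adjusted p = 0.738). With arrays centred on their medians in place of loess, SCD passed in Holstein-Friesian at -1.21 (limma adjusted p = 0.0182) and in the difference at 1.75 (limma adjusted p = 0.0198), where the median of all probes stood at -0.20 and 0.36. Those fits called 6680 and 6219 of all 17061 probes.

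Bull by bull, the SCD level was 11.9, 11.0, 12.3 and 11.8 in Hereford and 10.9, 10.72, 10.8 and 11.5 in Holstein-Friesian. The Limousin bulls read 11.5, 11.5, 11.9 and 11.3 in Cy5 and 11.6, 11.4, 11.7 and 11.2 in Cy3. Hereford bull 2 was the low one of its breed and Holstein-Friesian bull 4 the high one of its own. In the same dye as Limousin, SCD was 0.21 ± 0.47 in Hereford and -0.50 ± 0.57 in Holstein-Friesian (SD, n = 4 each), with a Limousin Cy5 minus Cy3 value of 0.09. A dimmer SCD probe read 0.75, -0.28, -0.10 and 0.57 on the Hereford arrays and -0.36, -0.51, -0.91 and 0.29 on the Holstein-Friesian arrays, and its deviations from the breed means correlated with those of the brighter probe at 0.76 over 8 arrays. On the third Hereford array the probes differed in sign.

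GPAM, the mitochondrial glycerol-3-phosphate acyltransferase, attaches the first fatty acid to the glycerol backbone. Its ratio was -0.03, 0.55, 0.84 and 0.90 on the Hereford arrays and 1.03, 0.40, 0.63 and 0.08 on the Holstein-Friesian arrays. In all, 7 of the 8 ratios were above 0. The mean was 0.57 ± 0.43 in Hereford (limma adjusted p = 0.106) and 0.54 ± 0.40 in Holstein-Friesian (limma adjusted p = 0.125, SD, n = 4 each), and the difference of 0.03 had a 95% interval between -0.57 and 0.62.

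Averaged over the breeds by Limousin bull, GPAM was 0.55 ± 0.12 (SD, n = 4), the largest marbled value of the 8 genes, with a limma adjusted p of 0.0521. It passed with the arrays centred on their medians, at 0.62 (limma adjusted p = 0.0256), and with the authors' deposited log ratios, at 1.51 (limma adjusted p = 0.0264). Those settings called 950 and 438 of all 17061 probes in the marbled mean. GPAM did not pass with the replicate block (limma adjusted p = 0.108), without the filter (0.0551), with a gene's probes averaged (0.0513) or with any 1 bull left out (0.0927 to 0.195). With a bull left out, the marbled mean called at most 1 of all 17061 probes. GPAM was dim: its net intensity ran between 35 and 117 in Hereford, 17.5 and 93 in Holstein-Friesian, 30.5 and 65 in Limousin Cy5 and 17.75 and 37.25 in Limousin Cy3, with 1 Holstein-Friesian and 1 Limousin reading not well above background. The offset of 50 added during background correction draws ratios of such dim probes toward 0. In the same dye as Limousin, GPAM was 0.38 ± 0.43 in Hereford and 0.73 ± 0.34 in Holstein-Friesian (SD, n = 4 each, limma adjusted p = 0.0845 for Holstein-Friesian).

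AGPAT2, the acyltransferase that adds the second fatty acid to give phosphatidate, read -0.52, 0.19, -1.11 and -0.44 on the Hereford arrays and 0.44, -0.50, 0.38 and -0.06 on the Holstein-Friesian arrays. In all, 3 of 4 Hereford ratios were below 0, Holstein-Friesian was evenly divided, and the breeds overlapped. Means were -0.47 ± 0.53 in Hereford (limma adjusted p = 0.229) and 0.07 ± 0.44 in Holstein-Friesian (limma adjusted p = 0.895, SD, n = 4 each). The difference of -0.54 had a 95% interval between -1.23 and 0.16 and was not called (limma adjusted p = 0.359). AGPAT2 was the 1 gene of the 8 called between the Limousin readings in Cy5 on one slide and in Cy3 on the other. Cy5 minus Cy3 was -0.37 (limma adjusted p = 0.0416), against 4.42% of all probes called in that check. No probe was called in it when bull 2, 3 or 4 was left out (limma, 2319 to 3079 probes at an unadjusted p under 0.05). In the same dye the ratios were -0.10 ± 0.53 in Hereford and -0.30 ± 0.39 in Holstein-Friesian (SD, n = 4 each), so the sign in Holstein-Friesian turned.

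DGAT2 joins the last fatty acid to diacylglycerol and completes triglyceride. Its ratio was 0.20, 0.66, 0.31 and -0.38 on the Hereford arrays and 0.64, -0.07, 0.65 and -0.15 on the Holstein-Friesian arrays. Both breeds straddled 0 and covered nearly the same range. Means were 0.20 ± 0.43 in Hereford (limma adjusted p = 0.606) and 0.27 ± 0.44 in Holstein-Friesian (limma adjusted p = 0.454, SD, n = 4 each), and the difference was -0.07 with a 95% interval between -0.69 and 0.55. Its Limousin readings differed by 0.0046 between dyes, and the same-dye ratios were 0.19 in Hereford and 0.27 in Holstein-Friesian.

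**Figure D3:**
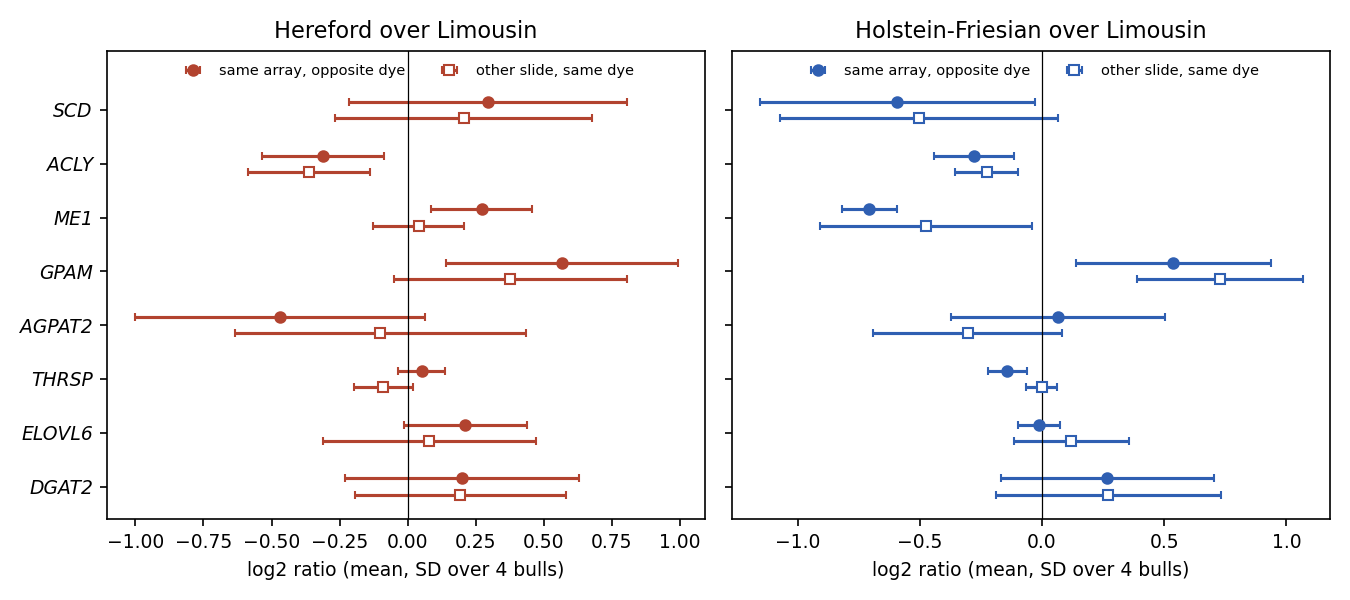
Mean log2 ratio over Limousin with SD over 4 bulls (horizontal axes) for the 8 genes, Hereford left and Holstein-Friesian right, measured within an array against the opposite dye (filled circles) and against the same Limousin bull in the same dye on the other slide (open squares). ME1 in Holstein-Friesian moves to -0.48 from -0.71 and its SD widens to 0.43. AGPAT2 and ELOVL6 in Holstein-Friesian and THRSP in Hereford change sign, while SCD, ACLY and DGAT2 keep theirs.

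Correlations among the 8 genes ran in both directions. Over 8 arrays, with each gene's breed mean removed, the highest of the 28 pairwise correlations was 0.87 between ACLY and ELOVL6, and the lowest was -0.79 between ME1 and THRSP. SCD correlated with DGAT2 at -0.70 and with ACLY at 0.46, and GPAM correlated with DGAT2 at 0.26. These values describe 8 arrays that share 4 Limousin bulls. Among 6692 other named genes, the deviations of SCD were most like those of MBD5 (0.98), FBLN5 (0.97) and STAT5A (0.95). Those of GPAM were most like those of OSBPL3 (0.97), NARS2 (0.96) and KCNMB3 (0.96). These genes were picked as the highest of 6692 correlations over 8 arrays, where high values arise by selection, and no test was made.

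Around the 8 genes, a wider list of 56 genes of fat synthesis, NADPH supply and their regulation had 32 genes on the array and 29 with a kept probe. FASN (fatty acid synthase) and GPD1 (which makes glycerol-3-phosphate) had no matched probe, and ELOVL5 had one that failed the filter. In Hereford over Limousin 2 of the 29 fell and 0 rose, against 7.13% of all probes called, and in the difference 2 were lower in Hereford and 0 higher, against 2.68%. In Holstein-Friesian over Limousin and in the marbled mean 0 passed by limma. At an unadjusted limma p under 0.05 stood 8 and 5 of the 29, against 4011 and 3336 of the 17061 probes. The median ratio of the 29 was -0.12 in Hereford, 0.13 in Holstein-Friesian and 0.02 in the marbled mean, and the median difference was -0.20. Groups did not overlap in 6 of the 29, against the 14.0% of all probes given above: TALDO1, MID1IP1 and, named after their values were seen, PGD, NR1H3, GPAT2 and PLPP2. PLPP2, a phosphatidate phosphatase of membranes, was -0.79 ± 0.57 in Hereford (limma adjusted p = 0.0514) and 0.23 ± 0.27 in Holstein-Friesian (SD, n = 4 each), and its difference of -1.02 did not pass (limma adjusted p = 0.0912). Its Limousin readings differed between the slides and their dyes, at -0.39 for Cy5 minus Cy3 (limma adjusted p = 0.0415). In the same dye PLPP2 was -0.40 in Hereford and -0.16 in Holstein-Friesian, where the sign turned.

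The genes that fell were TALDO1 and MID1IP1. TALDO1, transaldolase of the pentose phosphate pathway, whose oxidative arm is another source of NADPH, read -0.62, -0.59, -0.67 and -0.55 on the Hereford arrays and -0.11, 0.31, 0.40 and -0.10 on the Holstein-Friesian arrays. Every Hereford ratio lay below every Holstein-Friesian ratio. TALDO1 fell by 0.61 ± 0.05 in Hereford relative to Limousin (SD, n = 4, limma adjusted p = 0.0143), and its difference was -0.73 (95% interval between -1.04 and -0.43, limma adjusted p = 0.0361). Tested as differences paired by Limousin bull, the TALDO1 difference was just outside the threshold (limma adjusted p = 0.0510). With median centring it was 0.10, or -0.26 relative to the median of all probes. Against Limousin in the same dye TALDO1 was -0.32 ± 0.16 in Hereford (limma adjusted p = 0.117) and -0.16 ± 0.34 in Holstein-Friesian (SD, n = 4 each), and its Limousin readings differed by -0.29, Cy5 minus Cy3.

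MID1IP1, a protein related to THRSP that promotes polymerization of acetyl-CoA carboxylase, read -0.64, -0.77, -0.54 and -0.21 on the Hereford arrays and 0.01, 0.45, 0.16 and 0.60 on the Holstein-Friesian arrays. All Hereford ratios were below 0 and all Holstein-Friesian ratios above it. It fell by 0.54 ± 0.24 in Hereford (SD, n = 4, limma adjusted p = 0.0353) and was 0.31 ± 0.27 in Holstein-Friesian (SD, n = 4, limma adjusted p = 0.166), with a difference of -0.84 (95% interval between -1.23 and -0.46, limma adjusted p = 0.0434). Its Limousin readings differed between the slides and their dyes, Cy5 above Cy3 by 0.57 ± 0.24 (SD, n = 4, limma adjusted p = 0.0422). In the same dye the values were larger, -1.11 in Hereford (limma adjusted p = 0.0301) and 0.88 in Holstein-Friesian (limma adjusted p = 0.101). The Hereford calls of MID1IP1 and the differences of both genes were lost when any single Limousin bull's arrays were left out, and the Hereford call of TALDO1 was lost without bull 2 or 4. Without bull 2, 3 or 4 the difference called only 0, 24 and 0 of all 17061 probes. The Hereford fits without bull 2 or 4 called 45 and 30.

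SREBF1, the transcription factor that switches on lipogenic genes, was -0.11 ± 0.36 in Hereford and -0.27 ± 0.20 in Holstein-Friesian (SD, n = 4 each), below 0 on 7 of 8 arrays and not called. With median centring it passed in Holstein-Friesian at -0.70 (limma adjusted p = 0.0147) and in the difference at 0.81 (limma adjusted p = 0.0297). INSIG1, which holds back the processing of that factor, was 0.44 ± 0.61 in Hereford and -0.16 ± 0.27 in Holstein-Friesian (SD, n = 4 each) and did not pass, except in the difference with median centring, at 1.07 (limma adjusted p = 0.0439). Median centring called 6680 of all 17061 probes in Holstein-Friesian and 6219 in the difference, with medians of all probes at -0.20 and 0.36. DGAT1, the other enzyme of the last step of triglyceride synthesis, was -0.18 ± 0.38 in Hereford and -0.27 ± 0.21 in Holstein-Friesian (SD, n = 4 each), also not called. The difference for DGAT1 was 0.09, with a 95% interval between -0.37 and 0.54.

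**Figure D4:**
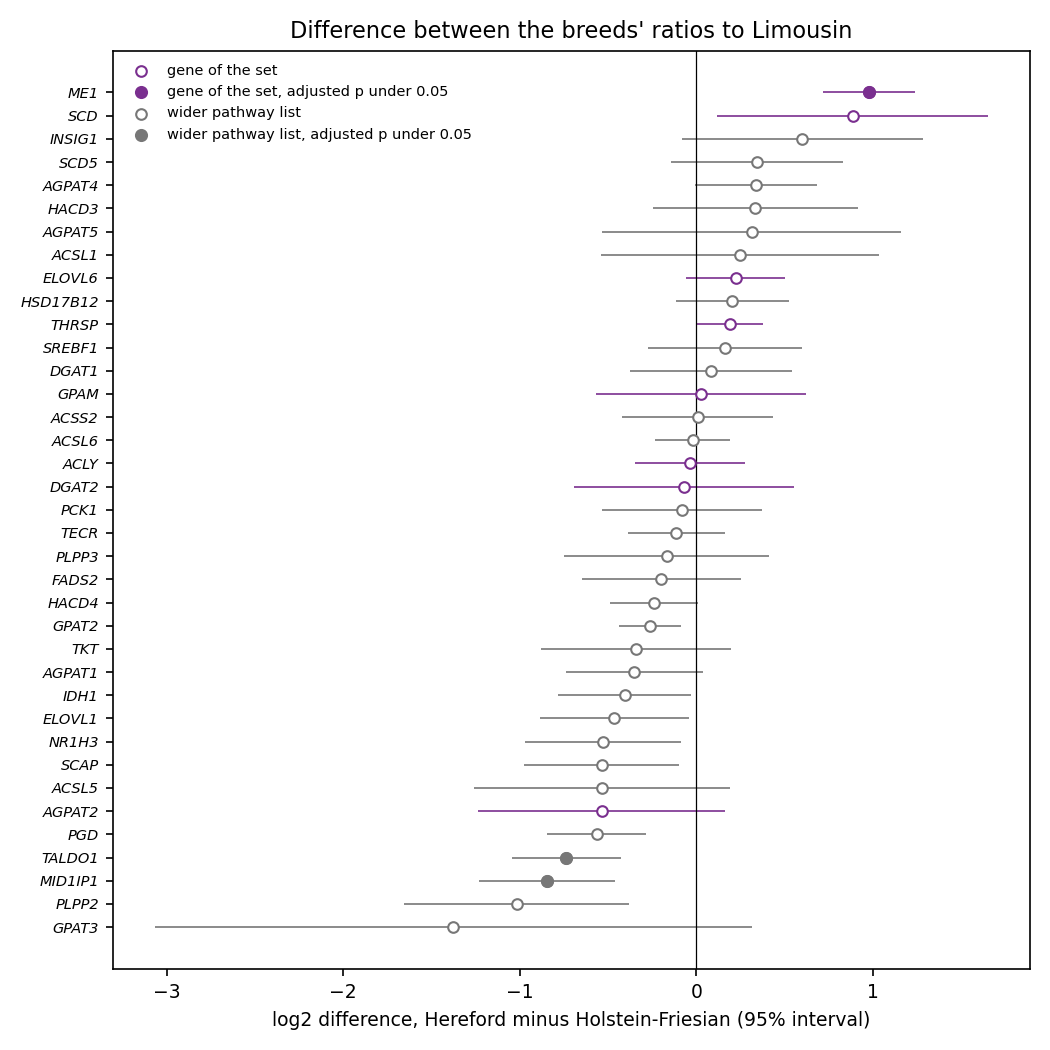
Hereford minus Holstein-Friesian difference of log2 ratios to Limousin (horizontal axis) with its 95% interval for the 8 genes (purple) and the 29 genes of the wider list (grey), ordered by size, filled where the limma adjusted p is under 0.05. ME1 at 0.98 is the only filled point above 0, and TALDO1 at -0.73 and MID1IP1 at -0.84 are the filled points below it.

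Because fat cells carry these enzymes, their markers were read beside them. Of 14 listed markers 11 had a kept probe, and ADIPOQ, CD36 and PLIN4 had none. FABP4, the fatty acid binding protein of fat cells, read 2.97, -1.34, 1.56 and -1.22 on the Hereford arrays and 0.32, -1.29, 1.06 and -2.67 on the Holstein-Friesian arrays. CIDEC, a protein of the fat droplet surface, read 2.92, -0.92, 0.49 and -0.56 on the Hereford arrays and 0.37, -1.30, 0.42 and -1.15 on the Holstein-Friesian arrays. Both markers were higher than Limousin with bulls 1 and 3 and lower with bulls 2 and 4 in both breeds. Arrays of the same number share a Limousin bull, and the part of that bull in the pattern was not tested. Not all of the 11 markers followed it: CIDEA was below 0 on all 8 arrays, and LPL was -0.48 on Hereford array 1 and 0.21 on Hereford array 2. FABP4 averaged 0.49 ± 2.13 in Hereford and -0.64 ± 1.67 in Holstein-Friesian (SD, n = 4 each), and neither passed.

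By level, FABP4 was highest in Hereford bull 1, at 11.1, and in Limousin bull 4, at 10.3 in Cy5 and 10.2 in Cy3, and ran between 7.37 and 8.996 in the remaining readings. The Limousin readings of FABP4 differed by -0.0067 ± 0.06 between dyes (SD, n = 4). The summed normalized intensity of the 11 markers ran between 24214 and 42119 in Hereford, 33029 and 46996 in Holstein-Friesian, 31333 and 38503 in Limousin Cy5 and 24986 and 39784 in Limousin Cy3. Between 70.3% and 86.5% of that sum came from the CEBPA probe, so it mostly follows that gene. Without CEBPA the sum ran between 5157 and 8685 in Hereford, 6578 and 9781 in Holstein-Friesian, 5196 and 6996 in Limousin Cy5 and 4837 and 7418 in Limousin Cy3, and the groups overlapped. In Holstein-Friesian over Limousin 2 of the 11 markers were called, against 6.45% of all probes. They were CFD (complement factor D or adipsin, secreted by fat cells), which rose by 1.17 ± 0.52 in Holstein-Friesian relative to Limousin, and CIDEA (a droplet protein), which fell by 0.42 ± 0.28 there (SD, n = 4 each, limma adjusted p = 0.0165 and 0.0470). In Hereford CIDEA was -0.39 ± 0.11 (SD, n = 4, limma adjusted p = 0.0568), so that it lay below Limousin on all 8 arrays. Neither call held in the same dye (limma adjusted p = 0.0866 for CFD and 0.192 for CIDEA), and the CIDEA call was lost whichever bull was left out (limma adjusted p between 0.101 and 0.178).

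Across arrays, the likeness of SCD and GPAM to the 11 markers differed from marker to marker. With breed means removed, SCD correlated with FABP4 at -0.22 and with CIDEC at -0.05 over 8 arrays, and its correlations with the markers ran between -0.72 (LEP, leptin) and 0.70 (PPARG, the nuclear receptor of fat cell differentiation). GPAM correlated with FABP4 at -0.02 and with CIDEC at -0.25, and ran between -0.76 (CEBPA, a transcription factor of fat cells) and 0.89 (LPL, lipoprotein lipase). On the Hereford arrays in order, SCD was 0.30, -0.43, 0.64 and 0.67 where FABP4 was 2.97, -1.34, 1.56 and -1.22. The part of fat cell content in the ME1 difference was not tested.

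**Figure D5:**
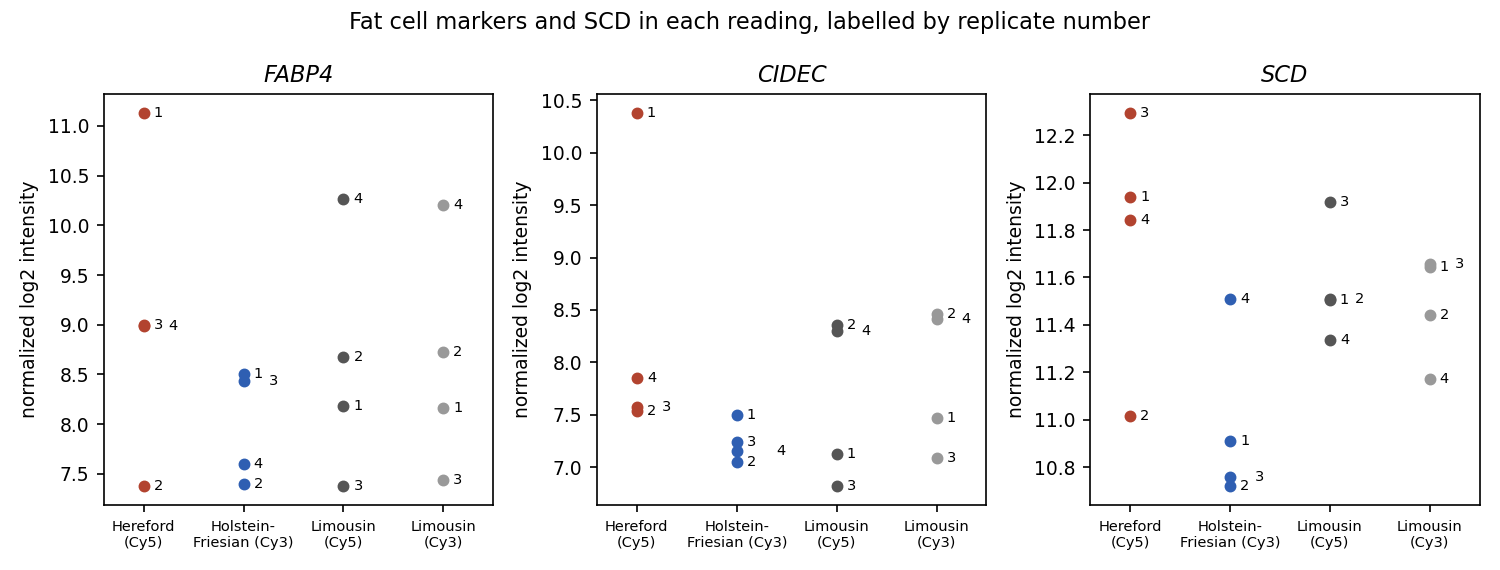
Normalized log2 intensity (vertical axes, which do not start at 0) of the fat cell markers FABP4 and CIDEC and of SCD in each reading, labelled by replicate number, which for Limousin is the bull. Hereford 1 has the highest FABP4, at 11.1, and the highest CIDEC, while SCD is highest in Hereford 3, at 12.3.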

How the data were processed

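Trizol was used to extract total RNA of 12 bulls, per the labels' protocols, and the RNA was read on 8 dual-colour arrays. The scanner output that the authors deposited came from Agilent Feature Extraction (version 10.7.3.1), according to the submitters' processing notes, and gave median spot and local background intensity per channel, per the file headers. The authors' processed table gave each spot's Cy5 over Cy3 as a log10 value, identical to the scanner's own log ratio in 44407 of 44407 spots on each array (tolerance 1e-06). Although the series text speaks of turned Holstein-Friesian arrays, Limousin stays on top of those ratios in the deposited table. It served as an alternative, turned to breed over Limousin.

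Background was corrected with limma 3.58.1 in R 4.3.3 (normexp, offset 50) and arrays were normalized by loess (span 0.3), with control and outlier spots given no weight. Spots of a probe were averaged, giving 21475 probes, of which 17061 were well above background (in a share of at least 0.5 of their spots) in at least 4 of 16 readings. Gene symbols for 8297 probes of 7788 genes came from RefSeq accessions (assembly ARS-UCD2.0, names only, because the array design uses Btau_3.1, per the file headers). Breed means were fitted over 8 arrays with lmFit and eBayes, in tests that were two-sided. The marbled comparison used the mean ratio of each Limousin bull (n = 4), where dye effects common to both slides cancel, while in the difference they double. Levels are single-channel values after Aquantile normalization. The Limousin check set each bull in Cy5 against itself in Cy3. Same-dye ratios are the array ratios shifted by that check, so they add no separate measurement.

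Replicate numbers pair the arrays, since the labels give the same Limousin bull on both slides. Same-bull arrays deviated together at 0.41, 0.27, 0.50 and 0.10, against -0.34 to 0.14 for different bulls. The 10 genes and all lists were chosen with earlier results of these data known, so no list was tested. All 10 were named, with each wider-list gene called in any comparison, FASN, SREBF1, DGAT1, GPD1, ELOVL5 and INSIG1 where kept, and the 3 genes most like SCD and GPAM. The code was tested on simulated data. Alternatives were median centring, the deposited ratios, the filter, averaging a gene's probes, same-dye comparison, each breed alone, the replicate block and leaving out each bull. For the difference, the replicate block setting tested the differences paired by Limousin bull. Figures were drawn with matplotlib 3.10.9.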

Additional observations from a re-analysis of the deposited data

Results flagged for a closer look

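Hereford and Holstein-Friesian differed in their ratio to Limousin by the limma test of the difference for 1 of the 8 genes, 2 of the 29 genes of the wider list and 1 of the 11 fat cell markers, against 2.68% of all probes. ME1 was 0.98 higher in Hereford on the log2 scale, and MID1IP1 (-0.84), TALDO1 (-0.73) and CFD (-1.58, limma adjusted p = 0.0349) were lower. A dye effect common to both slides doubles in this difference. Against Limousin in the same dye, ME1 was 0.04 in Hereford and -0.48 in Holstein-Friesian. There MID1IP1 was -1.11 and 0.88, and TALDO1 was -0.32 and -0.16, below 0 in both breeds. CFD read -0.63, -0.67, 0.13 and -0.46 on the Hereford arrays and 0.59, 0.89, 1.59 and 1.64 on the Holstein-Friesian arrays, without overlap, and the same-dye ratios to Limousin were -0.27 for Hereford and 1.03 for Holstein-Friesian, where the call was lost (limma adjusted p = 0.0866).

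In 3 more genes of the wider list every Hereford array was below Limousin and every Holstein-Friesian array above it, although the difference did not pass the limma test over the 8 arrays. These genes were chosen after their values were seen. PGD, phosphogluconate dehydrogenase, a source of NADPH, differed by -0.56 (limma adjusted p = 0.0548), and passed when tested as differences paired by Limousin bull (limma adjusted p = 0.0427). NR1H3, the liver X receptor alpha, a nuclear receptor that induces SREBF1, differed by -0.53 (limma adjusted p = 0.176). GPAT2, a mitochondrial glycerol-3-phosphate acyltransferase, differed by -0.26 (limma adjusted p = 0.107). Against Limousin in the same dye, in Hereford and Holstein-Friesian, PGD was -0.31 and 0.33, NR1H3 -0.11 and 0.13, and GPAT2 -0.09 and 0.14. There NR1H3 ran between -0.56 and 0.16 in Hereford and between -0.15 and 0.39 in Holstein-Friesian. PGD reached down to -0.03 in Holstein-Friesian, so only GPAT2 kept opposite signs for every bull. None of the 8 genes had an array that stood apart from its breed's group of 4 by Dixon's test.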

How the results depend on the processing

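Centring each array on its median in place of loess shifted the median of all kept probes to 0.10 in Hereford, -0.20 in Holstein-Friesian, 0.0014 in the marbled mean and 0.36 in the difference, and called 315, 6680, 950 and 6219 probes, of which 87.0%, 29.0%, 23.1% and 78.1% were higher. Members called were then 4 in Holstein-Friesian (SCD, ACLY, ME1 and GPAM), 1 in the marbled mean (GPAM) and 3 in the difference (SCD, ACLY and ME1). ME1 was -1.20 in Holstein-Friesian and 1.69 in the difference. SREBF1 passed in Holstein-Friesian and in the difference, INSIG1 (1.07) and CIDEA (0.72) in the difference, and TALDO1 (-0.43) and CIDEA (-0.53) in the marbled mean. Signs that turned under it were, in the difference, ACLY 0.61, AGPAT2 0.45, DGAT2 0.61, ELOVL6 -0.011, GPAM -0.058, NR1H3 0.35, PGD 0.24 and TALDO1 0.10. In Hereford they were GPAT2 0.013 and SREBF1 0.11, and in the marbled mean NR1H3 -0.18, PGD -0.18 and THRSP 0.033. In Holstein-Friesian they were AGPAT2 -0.59, DGAT2 -0.20, ELOVL6 0.19, MID1IP1 -0.12, NR1H3 -0.36, PGD -0.30, PLPP2 -0.088, TALDO1 -0.48 and THRSP 0.026. Relative to the shifted median, TALDO1 (-0.26), PGD (-0.11) and NR1H3 (-0.01) kept a negative difference, while ME1 (1.33) and SCD (1.39) were higher. Centring ended the Hereford calls of TALDO1 (-0.38) and MID1IP1 (-0.37), the Holstein-Friesian call of CFD (0.57, limma adjusted p = 0.0519) and the differences of MID1IP1 (-0.25) and CFD (-0.76).

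The deposited log ratios called 2129 probes in Holstein-Friesian, 438 in the marbled mean and 979 in the difference, with 1 member in the marbled mean, and turned CIDEC (-0.039) and PGD (-0.0055) in the marbled mean. They ended the TALDO1 difference (limma adjusted p = 0.0657) and the CIDEA call in Holstein-Friesian (0.0813). Requiring all 16 readings gave 371 marbled probes, and PLPP2 passed in Hereford (limma adjusted p = 0.0392). No filter gave 42 and ended the CIDEA call (0.0530). Each breed alone gave 27 probes in Hereford and ended its calls of TALDO1 and MID1IP1 (limma adjusted p = 0.0541 and 0.0969) and that of CIDEA in Holstein-Friesian (0.104). The same-dye comparison called 437 probes in Hereford and 187 in Holstein-Friesian. Of the members 0 were called in Holstein-Friesian (limma, 3 at an unadjusted p under 0.05, against 3450 of the 17061 probes). It turned THRSP in Hereford (-0.090) and AGPAT2 (-0.30), ELOVL6 (0.12), PLPP2 (-0.16) and TALDO1 (-0.16) in Holstein-Friesian. The fit with the Limousin bull as a replicate block called 909 probes in the marbled mean. For the difference this alternative tested the differences paired by Limousin bull, called 701 probes and ended the TALDO1 difference. The PGD difference and CIDEA in the marbled mean passed (limma adjusted p = 0.0427 and 0.0275). This alternative changed no other call among the genes of the set and the wider-list genes named. ME1 stayed called there (limma adjusted p = 0.00557 in Holstein-Friesian and 0.0251 in the difference).

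Leaving out 1 bull's arrays at a time gave, in Hereford, 30 to 1055 probes and 0 to 2 members (ME1 and GPAM without replicate 1, at 0.36 and 0.76), with SREBF1 -0.28 to 0.010, FABP4 -0.34 to 1.10 and CIDEC -0.33 to 0.95. In Holstein-Friesian it gave 78 to 804 probes and 0 to 1 members, with AGPAT2 -0.059 to 0.25, ELOVL6 -0.053 to 0.011 and FABP4 -1.21 to 0.032. The marbled mean kept 0 to 1 probes by limma (2340 to 3341 at an unadjusted p under 0.05), with SCD -0.34 to 0.0042, PGD -0.071 to 0.044, NR1H3 -0.080 to 0.13, FABP4 -0.65 to 0.55 and CIDEC -0.50 to 0.41. The difference gave 0 to 457 probes (limma, 2217 to 3785 at an unadjusted p under 0.05) and 0 to 1 members, with ACLY -0.13 to 0.033, GPAM -0.23 to 0.39, DGAT2 -0.34 to 0.052, DGAT1 -0.058 to 0.19 and CIDEA -0.051 to 0.10. The dye check gave 0 to 5713 probes, the highest without bull 1. The CFD calls in Holstein-Friesian and in the difference were lost without bull 2, 3 or 4. Causes were not tested. Dim Holstein-Friesian signal limits ELOVL6, THRSP and GPAM, which were not above background in all 4 readings of that breed.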

Other observations

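The slow muscle fibre gene MYH7, a myosin heavy chain, varied between arrays much as GPAM did. MYH7 read 0.59, 1.45, 1.26 and 1.42 on the Hereford arrays and 2.16, 0.37, 1.24 and 0.45 on the Holstein-Friesian arrays, above Limousin on all 8. It rose by 1.18 ± 0.40 in Hereford relative to Limousin (SD, n = 4, limma adjusted p = 0.0468) and was 1.06 ± 0.84 in Holstein-Friesian (SD, n = 4, limma adjusted p = 0.0681). With breed means removed, GPAM correlated with MYH7 at 0.85 and with LPL, the lipoprotein lipase that frees fatty acids for uptake, at 0.89 over 8 arrays, ranks 49 and 22 of 6692 genes. SCD correlated with MYH7 at -0.24 and with LPL at -0.42. These pairs were picked after their values were seen from markers of fat and muscle, the arrays share 4 Limousin bulls, and no test was made. The other muscle markers were divided. GPAM correlated with TNNT1 at 0.79, DES at 0.52, MB at 0.35, CKM at 0.30 and MYH2 at 0.26. With MYH1 it correlated at -0.19 and with ACTA1 at -0.27. Fat cell markers other than LPL included PLIN1 at -0.51 and CEBPA at -0.76, and PPARG at 0.23. GPAM was also dim, as given above.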
